A study of Mus musculus with 6 samples.

Results

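The tripartite motif (TRIM) proteins are a large family of ubiquitin ligases. Members were taken by name, as every gene of the deposited count table whose symbol is Trim followed by digits and at most 1 letter, and 61 of the 22377 genes of the table matched. Of these, 45 had enough counts to be tested, against 13884 genes tested in the whole table.

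A TRIM protein carries a RING finger, which binds a ubiquitin-loaded E2 enzyme, then B-box zinc fingers and a coiled coil through which the proteins pair, and a variable end that selects the target. In macrophages many of them act in antiviral defence: some bind retroviral capsids, others attach ubiquitin chains to the sensors and adaptors that switch on interferon, and a number are themselves induced by interferon. A separate branch works in the nucleus as transcriptional corepressors, and others serve the cytoskeleton, the centrosome or protein turnover in nerve and muscle.

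The study asked what Npm1, the gene of the nucleolar protein nucleophosmin, controls in tumor-associated macrophages (TAMs). RNA was sequenced from 6 libraries, each a separate biological sample, in 2 groups of 3 that the labels name wt and ko. In the study's methods these are CD45+ CD11b+ F4/80+ cells sorted from Lewis lung carcinoma (LLC) tumors that grew under the skin of Npm1+/+ and Npm1+/- mice, whereas the labels give whole tumor tissue, call the second group a knockdown and state no genotype. The 2 accounts were not reconciled, and the groups are called wt and ko here as in the sample titles. Hosts of the tumor experiments were male and female mice, 6 to 8 weeks old at implantation. The Npm1-haploinsufficient mice are not described as deficient in macrophages alone, and the LLC cells that both groups received are not of their genotype. No drug treatment is stated for these samples.

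Short promoter elements are shown first, because interferon induces several members and the study concerns STAT3. RefSeq promoter windows of GRCm38.p6, from 250 bases before to 50 bases after a start site, were matched for 47 of the 61 members. The core of the interferon response element was searched as GAAANNGAA, in which N is any base, on both strands. It stood in at least 1 window of 9.76% of all 27025 genes and of 12 of the 47 matched members, among them 7 of the 10 genes of the Trim5 cluster on chromosome 7, the genes related to the primate retroviral capsid-binding factor TRIM5. In each line the element is in capitals, the sequence runs 5′ to 3′ on the strand of the gene, and the element reads TTCNNTTTC where it lies on the other strand.
Trim5 (chr7:104288136-104288164, minus strand): gagttgtggtTTCTGTTTCatttccagag
Trim12a (chr7:104315466-104315494, minus strand): gagttgtggtTTCTGTTTCatttccagag
Trim12c (chr7:104353359-104353387, minus strand): gagttgtggtTTCTGTTTCatttccagct
Trim30a (chr7:104465210-104465238, minus strand): gttctttagtTTCTTTTTCtcagttcctg
Trim30d (chr7:104507871-104507899, minus strand): gttctttagtTTCTTTTTCtcagttcctg
Trim34a (chr7:104244458-104244486, plus strand): ggtttggagtTTCAGTTTCttttctctgc
Trim34b (chr7:104329250-104329278, plus strand): tccttctgccTTCTCTTTCctgtgccacc
Trim21 (chr7:102565451-102565479, minus strand): cctctgagagGAAACTGAAagtgaaattt
Trim25 (chr11:88999384-88999412, plus strand): gcccctcctgTTCAGTTTCgattccttcc
The 29 bases shown were the same in Trim5 and Trim12a, and the same in Trim30a and Trim30d. Trim2, Trim7 and Trim26 held the element as well. All 12 members with it were tested, and as given in full below, 9 had lower and 3 higher estimates in the ko libraries, with 2 of the 12, Trim12c and Trim30a, free of overlap between the groups, against 25.9% of all genes. On the deposited FPKM values Trim5, Trim12a and Trim30d of the 9 had higher estimates instead, and with libraries scaled to the summed macrophage markers all 9 did.

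The core of a STAT element was searched as TTCNNNGAA, a pattern that reads the same on both strands. It stood in at least 1 window of 9.55% of all genes and of 6 of the 47 matched members, Trim15, Trim30c, Trim31, Trim38, Trim45 and Trim46. Of the 6, only 3 were tested, and their estimates went both ways. Trim45 (0.30) and Trim46 (0.15) were higher in the ko libraries with overlapping groups, and Trim30c was lower. Trim30c is shown because it had the largest difference of the family on the lower side, and its window held no GAAANNGAA.
Trim30c (chr7:104400822-104400850, minus strand): cgtgactaaaTTCTTAGAAgcttagtgac
A match says only that these letters lie in the window.

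Each library held between 36550775 and 38147320 counts. The first principal component of all tested genes took 68.0% of the variance and placed wt replicate 1 at -108, while the other 5 libraries lay between -4.54 and 52.0, so results are also given without that library. Npm1 itself was not lower in the ko libraries, at 142, 380.2 and 381 CPM (counts as a proportion of the library's total, scaled between libraries by the TMM method) in wt replicates 1, 2 and 3 against 441, 499 and 343 CPM in ko replicates 1, 2 and 3, and each direction below is therefore a direction between the libraries so labelled. All 10 macrophage markers were detected, with Lyz2, the lysozyme of myeloid cells, between 5667 and 14144 CPM. In bulk RNA, fewer cells of a type and less RNA per cell cannot be told apart.

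Levels across the family spanned a wide range, compared here as deposited FPKM, which divides each count by the length of its gene and by the total of its library. Trim25, the ligase that ubiquitinates the RNA sensor RIG-I, was the most abundant member, with a mean of 78.7 FPKM and values between 61.4 and 98.3 FPKM over the 6 libraries. Trim28, the corepressor of the KRAB zinc finger proteins, averaged 35.5 FPKM (30.1 to 49.4), and Trim30a, a brake on Toll-like receptor signalling, 29.4 FPKM (24.2 to 38.3). These ranges of Trim28 and Trim30a overlapped, so their order is not fixed by the data, whereas the lowest library of Trim25 was above the highest of either. Trim26 (15.7 FPKM) and Trim8 (15.2 FPKM) came next, with overlapping ranges.

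**Figure D1:**
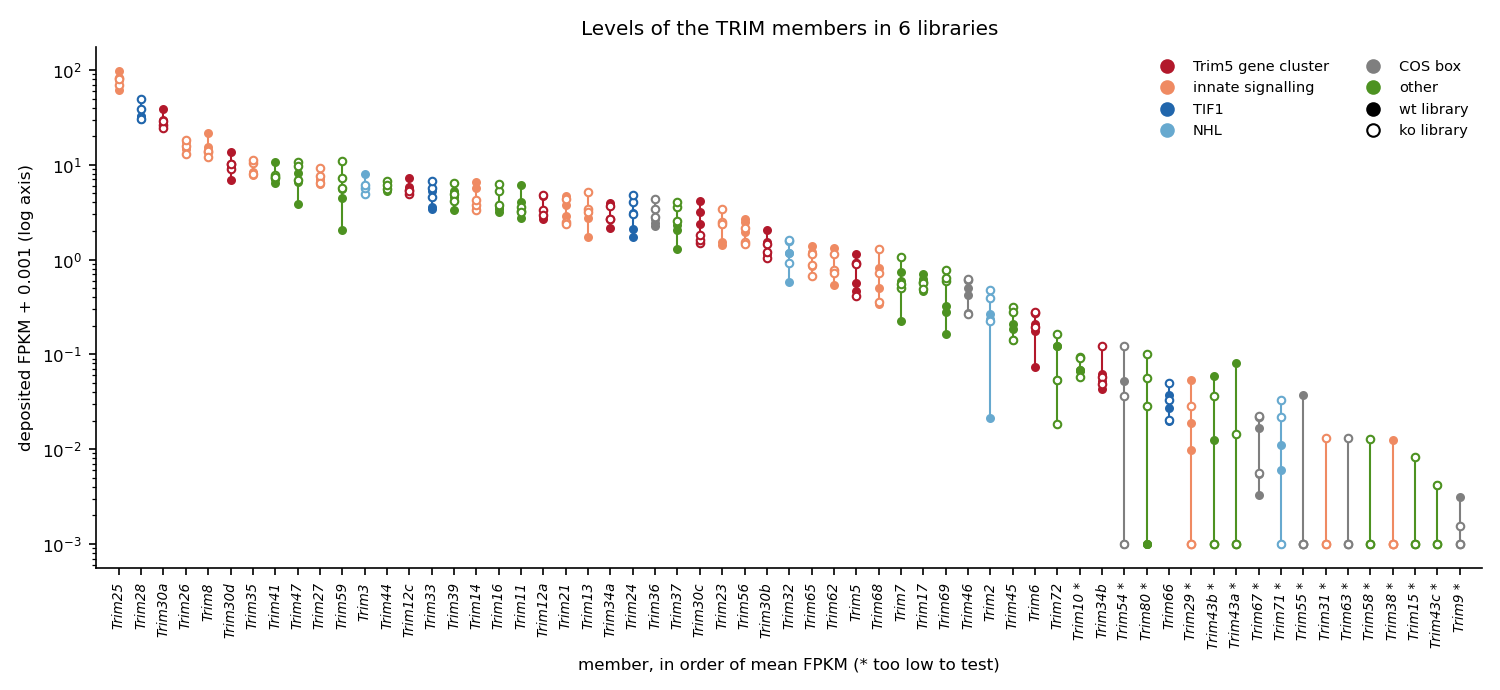
Deposited FPKM of the 61 TRIM members in the 6 libraries, plus 0.001 and on a log axis, in order of mean level. Filled points are wt libraries, open points ko libraries, colors give the class of the member, and an asterisk marks the 16 members too low to test. Trim25, Trim28 and Trim30a lead, and most of the 16 untested members have libraries at 0, drawn at 0.001.

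The members furthest from 0 were Trim30c, lower in the ko libraries at a log2 fold change of -1.11, and Trim69, higher at 1.24. Between the ko and the wt libraries no member passed the edgeR quasi-likelihood test at an adjusted p of 0.05, and the lowest adjusted p in the family was 0.328. The same test called 0.0% of all 13884 genes. At an unadjusted p under 0.05, 5 of the 45 tested members were higher and 5 lower, where 6.9% of all genes were higher and 8.31% lower. The 3 ko libraries lay above all 3 wt libraries for 5 members (Trim16, Trim24, Trim37, Trim59 and Trim69) and below them for 5 (Trim8, Trim12c, Trim30a, Trim30c and Trim56), against 13.3% and 12.6% of all genes, so the members' shares were near those of the table. Estimates were higher for 23 members and lower for 22, with a median log2 fold change of 0.06 beside 0.02 over all genes. This split depended on scaling, being 28 to 17 on the deposited FPKM values and 42 to 3 when libraries were scaled to the summed macrophage markers, a scaling that moves the median of all genes up by 0.57. Lyz2 made up most of the summed macrophage markers.

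DESeq2, which estimates the spread of each gene differently, called 0.263% of 13699 genes with all 6 libraries, and 1 member among them, Trim30c. On the 4 libraries shown in the study's heatmap (wt replicates 2 and 3, ko replicates 1 and 2) it called 4.42% of 12071 genes higher and 6.21% lower, with no member among the higher genes and 2 among the lower, Trim30c and Trim30a. On those 4 libraries edgeR called no gene at all. Without wt replicate 1, DESeq2 called 0.659% of genes, and Trim30c was again the member among them.

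**Figure D2:**
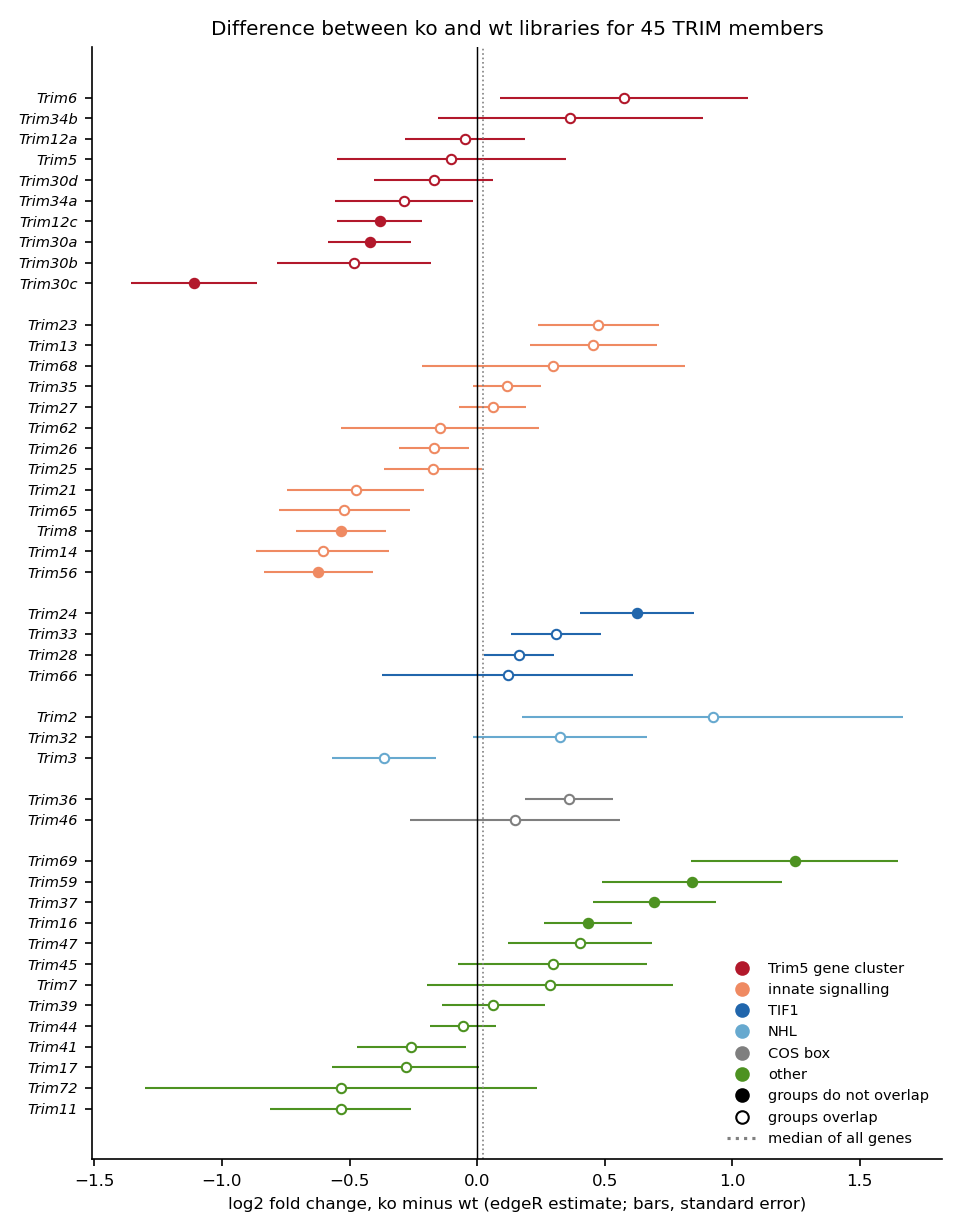
Log2 fold change of ko minus wt with its standard error for the 45 tested members, grouped by class. Filled points mark the 10 members whose groups do not overlap, and the dotted line is the median of all genes at 0.02. In the Trim5 gene cluster 8 of 10 estimates lie below 0, and all 4 of the TIF1 class lie above it.

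The Trim5 gene cluster spans chr7:104218793-104507849 in the GRCm38 GENCODE annotation, 289.1 kilobases that hold 10 members, all of which were tested. In these genes the estimate was lower for 8 and higher for 2, with a median log2 fold change of -0.23, and 3 of the 10 had groups that did not overlap, all of them lower, where 12.6% of all genes were lower without overlap. As many as 8 of the 10 also lay below the median of all genes under every scaling tried, although their sign did not hold: on the deposited FPKM values 5 were higher and 5 lower, and after scaling to the macrophage markers 9 were higher. Without wt replicate 3 the split was 5 to 5, the median -0.08 and only 5 of the 10 lay below the median of all genes, and without ko replicate 1 the split was 4 higher to 6 lower. Their summed level was 232, 241 and 308 CPM in wt replicates 1, 2 and 3 and 199.9, 181 and 227 CPM in ko replicates 1, 2 and 3, without overlap. Of these sums Trim30a alone held 128, 127 and 159 CPM in wt and 102, 85.7 and 121 CPM in ko.

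Trim30c (chr7:104382065-104400837), a relative of Trim30a, carried the STAT core shown above and was the most different member on the lower side. It stood at 12.8, 21.9 and 16.1 CPM in wt replicates 1, 2 and 3, a mean of 16.9 ± 4.61 (SD, n = 3). The ko libraries held 7.07, 7.04 and 9.44 CPM, a mean of 7.85 ± 1.37. Every ko library was below every wt library. The log2 fold change was -1.11 with a standard error of 0.25 (edgeR, adjusted p = 0.328; DESeq2, adjusted p = 0.0379). The study's heatmap shows this gene among those lower in ko, so it had been picked on libraries used here and its direction is not independent evidence. Without wt replicate 1, which was the lowest of the wt libraries here, the estimate was -1.28 (edgeR, adjusted p = 0.406; DESeq2, adjusted p = 0.000733). No 100-base window of its longest transcript was shared with another gene.

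Trim30a (chr7:104409025-104465193) was the most abundant gene of the cluster, at 128, 127 and 159 CPM in the wt libraries. In ko replicates 1, 2 and 3 it measured 102, 85.7 and 121 CPM, each below the lowest wt value. Its log2 fold change was -0.42 with a standard error of 0.16 (edgeR, adjusted p = 0.328). DESeq2 on the 4 heatmap libraries gave -0.64 with an adjusted p of 0.0113, and on all 6 libraries an adjusted p of 0.268. Trim12c (chr7:104338754-104353362), a relative of primate TRIM5, showed the same order at 23.6, 21.9 and 28.4 CPM in wt against 19.5, 16.4 and 20.8 CPM in ko, with an estimate of -0.38 ± 0.17 (SE). In this gene 7.64% of the 100-base windows also occur in other genes, most often in Trim5, so that reads could be divided between genes.

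The other members of the cluster had overlapping groups. Trim30b, at 4.53, 3.38 and 5.72 CPM in wt and 3.84, 2.53 and 3.39 CPM in ko, had a log2 fold change of -0.48 ± 0.30 (SE). Trim30d, whose promoter holds the same 29 bases as that of Trim30a, stood at 29.0, 39.6 and 53.8 CPM in wt and at 37.6, 30.6 and 40.7 CPM in ko, a range within which wt replicate 1 was the lowest library of all, and its estimate was -0.17 ± 0.23. Trim30a and Trim30d share 4.79% and 5.53% of their windows, chiefly with each other. For Trim34a the wt libraries ran from 6.12 to 11.5 CPM and the ko libraries from 6.77 to 8.59 CPM (-0.29 ± 0.27). Trim12a, with the promoter element in common with Trim5, differed least, at -0.05 ± 0.24, and Trim5 at -0.10 ± 0.45. Trim6, which builds unanchored ubiquitin chains that activate the kinase IKKε, stayed between 0.366 and 1.37 CPM and had an estimate of 0.58 ± 0.49. Trim34b stayed between 0.253 and 0.597 CPM, and 32.6% of its windows are also in other genes, most often in Trim34a, so its value is uncertain.

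**Figure D3:**
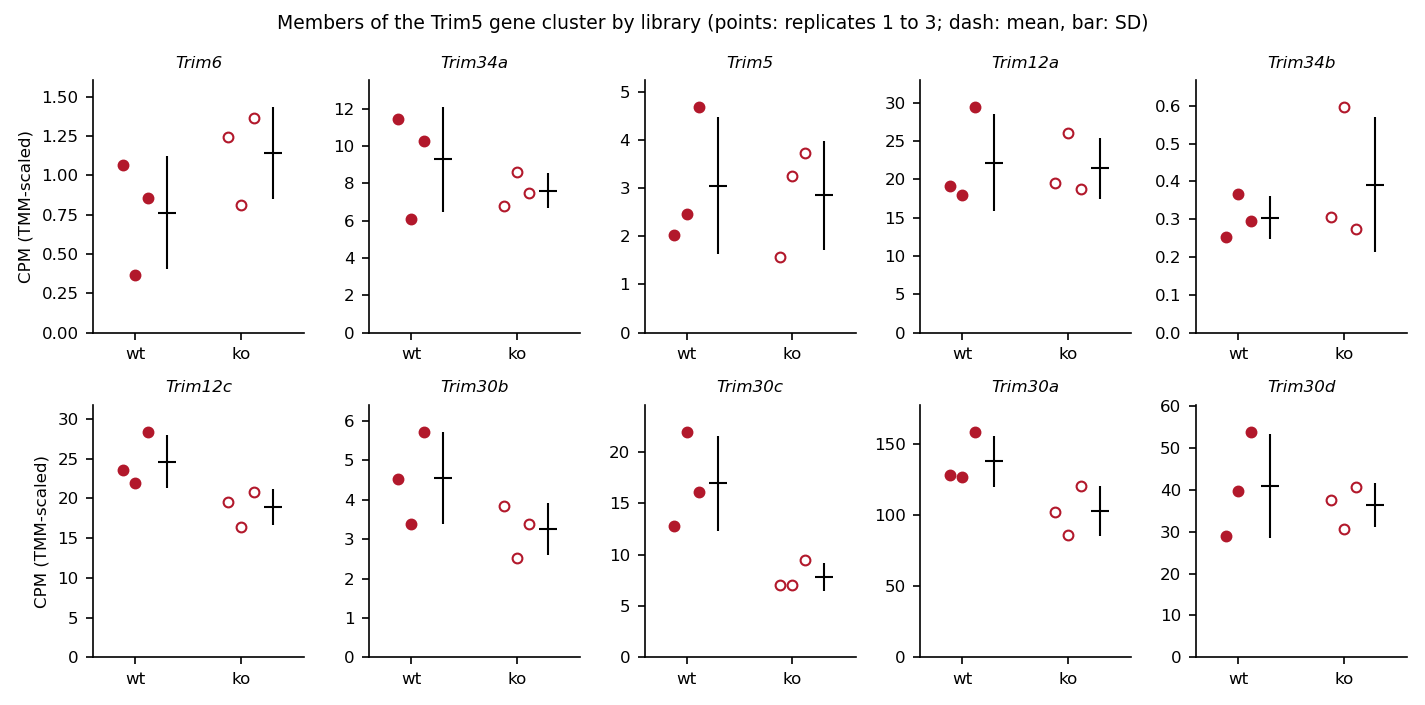
TMM-scaled CPM of the 10 genes of the Trim5 cluster by library, in order along the chromosome, each panel with its own axis from 0. Filled points are wt replicates 1 to 3, open points ko replicates 1 to 3, and the dash and bar give mean and SD (n = 3). Only in Trim12c, Trim30c and Trim30a do all ko points lie below all wt points.

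The innate signalling class holds ligases and adaptors of the RIG-I, STING and Toll-like receptor pathways. Of its 16 members 13 were tested, with 5 estimates higher and 8 lower and a median log2 fold change of -0.17. Without wt replicate 1 the split turned to 7 higher and 6 lower with a median of 0.02, on the 4 heatmap libraries it was 6 to 7, and after scaling to the macrophage markers 11 were higher. Trim56, a ligase of the STING pathway, measured 10.4, 8.0 and 10.5 CPM in wt and 5.67, 7.23 and 5.88 CPM in ko. The groups did not overlap, and the estimate was -0.62 ± 0.21 (SE; edgeR, adjusted p = 0.328). Trim8, which acts on cytokine and NF-kB signalling, measured 86.6, 57.5 and 59.0 CPM in wt against 48.9, 45.2 and 46.1 CPM in ko. Here too the groups did not overlap, at -0.54 ± 0.18, and wt replicate 1 was the highest library. Without that library the estimate of Trim8 was -0.32, and that of Trim56 stayed between -0.75 and -0.56 whichever library was left out. Trim14, an adaptor of the mitochondrial protein MAVS that lacks a RING, had wt values of 24.8, 13.1 and 20.5 CPM and ko values of 11.3, 11.6 and 15.5 CPM (-0.61 ± 0.26), so that ko replicate 3 was above wt replicate 2.

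Trim25 did not separate the groups. It stood at 591, 368 and 447 CPM in wt and at 374, 404 and 468 CPM in ko, so that the highest library and the lowest were both wt, and the estimate was -0.17 ± 0.19. Without wt replicate 1 it was 0.02. Trim21, the cytosolic antibody receptor, measured 11.4, 8.63 and 13.4 CPM in wt and 6.59, 10.6 and 6.76 CPM in ko, with an estimate of -0.48 ± 0.27. Both genes hold the interferon response core. Trim26, which acts on IRF3, was at -0.17 ± 0.14 with overlapping groups. The other 7 tested members of the class were between -0.52 and 0.48 and had overlapping groups.

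The TIF1 class comprises nuclear corepressors with a PHD finger and a bromodomain. All 4 members had higher estimates in ko, with a median log2 fold change of 0.24, under every scaling tried, but without wt replicate 1 or without ko replicate 2 the split was 3 to 1. Trim24, a coregulator of nuclear receptors, measured 13.6, 16.6 and 23.07 CPM in wt and 28.2, 30.9 and 23.14 CPM in ko. Its groups met without overlapping, wt replicate 3 and ko replicate 3 being almost level, and the estimate was 0.63 ± 0.22 (edgeR, adjusted p = 0.328). Trim33, which acts on SMAD signalling, was at 34.4, 32.6 and 47.7 CPM against 48.5, 51.6 and 42.0 CPM, at 0.31 ± 0.18. Trim28 was at 111, 105 and 107 CPM in wt and at 119, 139.8 and 102 CPM in ko, where the lowest library of the 6 was a ko library, and its estimate was 0.16 ± 0.14. Trim66 was below 0.65 CPM throughout and at 0.12 ± 0.49.

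A further 4 members without overlap were among the 13 tested members with no class. In these 4 the ko libraries were higher, where 13.3% of all genes were higher without overlap. Trim69 (chr2:122160700-122179027) had the largest estimate of the family, 1.24 ± 0.41 (edgeR, adjusted p = 0.328), from low levels of 0.309, 0.536 and 0.588 CPM in wt and 1.02, 1.22 and 1.18 CPM in ko. It overlaps Patl2 on the opposite strand. Trim59 (chr3:69035288-69044755) ran from 7.06 to 18.2 CPM in wt and from 19.1 to 31.2 CPM in ko, at 0.84 ± 0.35. In Trim37 (chr11:87127077-87220683), a ligase that limits centriole assembly, the values were 8.46, 13.6 and 14.5 CPM against 21.3, 21.7 and 16.1 CPM, at 0.69 ± 0.24. Trim16 (chr11:62820231-62850808), which takes part in the handling of damaged lysosomes, measured 15.0, 13.3 and 13.6 CPM in wt and 19.7, 21.3 and 15.4 CPM in ko, at 0.43 ± 0.17. It overlaps Fbxw10 on the same strand. In Trim59 and Trim37 wt replicate 1 was the lowest library, and without it their estimates were 0.53 and 0.49.

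**Figure D4:**
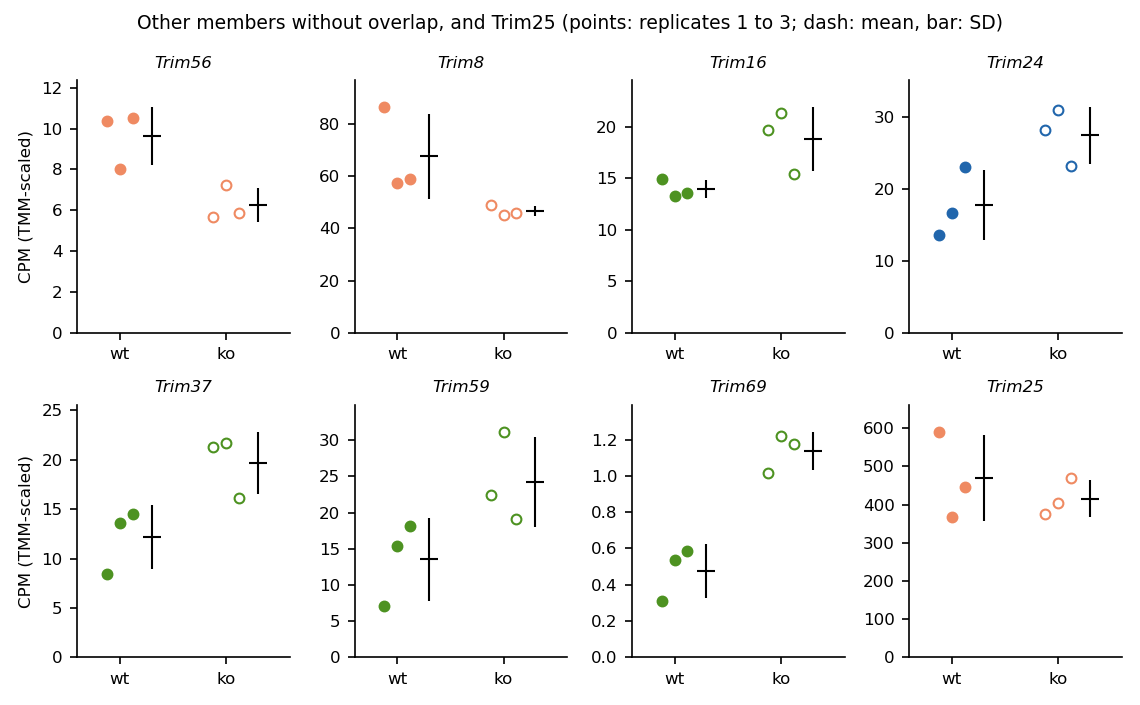
TMM-scaled CPM by library for the 7 tested members outside the Trim5 cluster whose groups do not overlap, and for Trim25, each panel with its own axis from 0. Filled points are wt replicates 1 to 3, open points ko replicates 1 to 3, with mean and SD (n = 3). Trim56 and Trim8 are lower in ko, the next 5 are higher, and Trim25 overlaps.

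The remaining classes held no other tested member without overlap. Among the NHL members, named for the repeats at their end, 3 of 4 were tested, with estimates of 0.92 for Trim2, -0.36 for Trim3 and 0.32 for Trim32, all with overlapping groups. Trim2, a neuronal ligase named here after its values were seen, was at 0.422 CPM in wt replicate 1 and between 4.49 and 8.65 CPM in the other 5 libraries. Of the 7 COS box members, which bind microtubules, only Trim36 (0.36) and Trim46 (0.15) were tested, and neither separated the groups. In the 20 members with no class the 13 tested had a median of 0.28, with 8 estimates higher and 5 lower, which became 6 to 7 without wt replicate 2 or without ko replicate 2.

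Taken over the whole family, wt and ko libraries overlapped. Over the 45 tested members the median deviation from the mean of 6 libraries was 0.09, -0.11 and 0.08 on the log2 scale in wt replicates 1, 2 and 3 and -0.01, 0.23 and -0.12 in ko replicates 1, 2 and 3. Ko replicate 2 was the highest library for 16 members and wt replicate 1 for 13. The latter was also the lowest for 12. Over all tested genes wt replicate 1 was highest in 33.0% and lowest in 33.5%, and ko replicate 2 highest in 25.1%. Without ko replicate 2 the split of estimates was 17 higher to 28 lower.

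The 16 untested members were Trim9, Trim10, Trim15, Trim29, Trim31, Trim38, Trim43a, Trim43b, Trim43c, Trim54, Trim55, Trim58, Trim63, Trim67, Trim71 and Trim80. None had more than 9 counts in any library, and since a library without a count could still hold up to 3, or 0.0716 to 0.0846 CPM, a difference in these genes was not detectable at this depth. That bound covers counting error only. Muscle members such as Trim54, Trim55 and Trim63 and the stem cell gene Trim71 are among them. Trim80, named after its values were seen, had no count in the wt libraries and 2, 7 and 4 counts in the ko libraries. Its groups thus did not overlap, at counts too low to test.

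Genes that work with the TRIM proteins were described from lists. Of the 3 tested TRIM proteins with other names, Mefv, the inflammasome protein pyrin, measured 559, 550.2 and 523 CPM in wt and 422, 346 and 480.3 CPM in ko, without overlap, at -0.39 ± 0.15 (edgeR, adjusted p = 0.328). Pml was at -0.27 ± 0.16 and Mid1 at 0.16 ± 0.26. The 19 E2 enzymes and ubiquitin-like modifiers had a median of -0.06, with 7 estimates higher and 12 lower. Of the 19, 3 were higher and 2 lower without overlap, against 13.3% and 12.6% of all genes. On the deposited FPKM values 13 were higher and 6 lower with a median of 0.085, and after scaling to the macrophage markers all 19 were higher. Ube2l6, the E2 enzyme for ISG15, measured 54.7, 58.4 and 45.1 CPM against 35.7, 37.3 and 36.2 CPM (-0.53 ± 0.13), and Uba7, its E1 enzyme, was at -0.48 ± 0.21. On the other side, Ube2e3 was at 0.30 ± 0.12 and Ube2v2, a partner of the K63 chain enzyme Ube2n, at 0.42 ± 0.21. EdgeR called no gene of either list, and DESeq2 with 6 libraries also called none. At an unadjusted edgeR p under 0.05 there were 1 and 2 genes, where 6.9% of all genes were higher and 8.31% lower.

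In RNA and DNA sensing, where Trim25 and Trim56 act, 18 genes were tested, the median was -0.14, and 6 genes were lower without overlap and none higher, against 12.6% and 13.3% of all genes. The split of 3 higher to 15 lower was 9 to 9 on the deposited FPKM values, with a median of 0.011, and 15 to 3 after scaling to the macrophage markers, with a median of 0.44. Dhx58, the RIG-I relative LGP2, measured 57.9, 49.7 and 43.5 CPM in wt and 30.5, 27.2 and 34.1 CPM in ko (-0.72 ± 0.15), and Irf7 178, 136 and 127 CPM against 107, 86.9 and 94.6 CPM (-0.61 ± 0.16). Tab3 (0.43 ± 0.23) and Tbk1 (0.18 ± 0.16) were the leading genes with higher estimates, and their groups overlapped. The interferon response list had all 18 tested genes with lower estimates and a median of -0.40, and 9 of them did not overlap, against 12.6% of all genes. Without wt replicate 2 the split was 3 higher to 15 lower, and without wt replicate 3 or ko replicate 3 it was 2 to 16. The medians of these 3 fits were -0.42, -0.43 and -0.40. Usp18, the ISG15 protease, measured 27.2, 18.5 and 24.0 CPM in wt and 13.3, 11.7 and 14.2 CPM in ko (-0.83 ± 0.18), and Oasl2 84.3, 78.7 and 85.3 CPM against 62.4, 46.1 and 50.2 CPM (-0.65 ± 0.14). On the deposited FPKM values 4 of the 18 and after scaling to the macrophage markers 13 of the 18 had higher estimates, the latter with all 18 still below the median of all genes. The 10 partners of Trim28 in KRAB zinc finger repression had 5 estimates on each side and a median of 0.09, which on the deposited FPKM values was 8 higher to 2 lower with medians of 0.22 and 0.25, and after scaling to the macrophage markers 10 higher. Cbx3 (0.72 ± 0.32) and Cbx5 (0.66 ± 0.35), both HP1 proteins, were higher without overlap, Chd4 (-0.27 ± 0.10) was lower without overlap, and Atf7ip (-0.29 ± 0.15) overlapped. In these 3 lists edgeR called no gene and DESeq2 with 6 libraries none. In edgeR 5, 9 and 1 genes had an unadjusted p under 0.05, all lower, against 8.31% of all genes. DESeq2 on the 4 heatmap libraries called 2 of the 18 sensing genes and 8 of the 18 interferon genes, all lower. In that fit 6.21% of 12071 genes were called lower.

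Markers of cell types also differed in level between the libraries. All 10 macrophage markers had lower estimates in ko, with a median of -0.53, and 6 were lower without overlap, against 12.6% of all genes. Their summed level was 21188, 16884 and 15825 CPM in wt against 12149, 9431 and 15733 CPM in ko. Lyz2 alone made 14144, 10371 and 9354 CPM of it in wt and 7499, 5667 and 9698 CPM in ko. In this sum, in that of the Trim5 cluster and in that of the interferon list, at 1567, 2067 and 1839.8 CPM in wt and 1451, 1328 and 1477 CPM in ko, no ko library reached a wt library, and ko replicate 3 was the highest of the ko libraries. The wt libraries did not share an order, as wt replicate 1 was the highest in the macrophage sum and the lowest in the other 2 sums. The 4 neutrophil markers also had lower estimates, with a median of -0.62. All 7 fibroblast markers had higher estimates, with a median of 1.47. Their sums were 23.7, 477 and 275 CPM in wt against 688, 544 and 345 CPM in ko. Without wt replicate 1 their median was 0.93. The 5 T cell markers also had higher estimates, with a median of 1.33. Their sums were 12.9 to 65.3 CPM in wt and 53.1 to 142 CPM in ko. So did the 3 NK cell markers, with a median of 0.95. Sums of these 3 were 22.1, 14.2 and 25.7 CPM in wt and 26.6, 71.0 and 23.0 CPM in ko. Without ko replicate 2 the T cell and NK cell medians were 0.72 and 0.25. Of the 3 tested epithelial or carcinoma markers 2 had higher estimates and 1, Cdh1 (-0.41), a lower one, with a median of 0.76. Without wt replicate 1 that median was 0.29. Krt19 was at 0 in 5 libraries and Epcam below 0.75 CPM. B cell and dendritic cell markers had medians of -0.09 and -0.03. EdgeR called none of these markers, and DESeq2 with 6 libraries none. At an unadjusted edgeR p under 0.05 there were 11 of them, where 6.9% of all genes were higher and 8.31% lower. DESeq2 on the 4 heatmap libraries called 8 of the 10 macrophage markers and 1 neutrophil marker lower, against 6.21% of all genes. It called 4 fibroblast markers, 1 carcinoma marker and 1 NK cell marker higher, against 4.42% of all genes. The part of these markers in the values of the TRIM members was not tested.

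**Figure D5:**
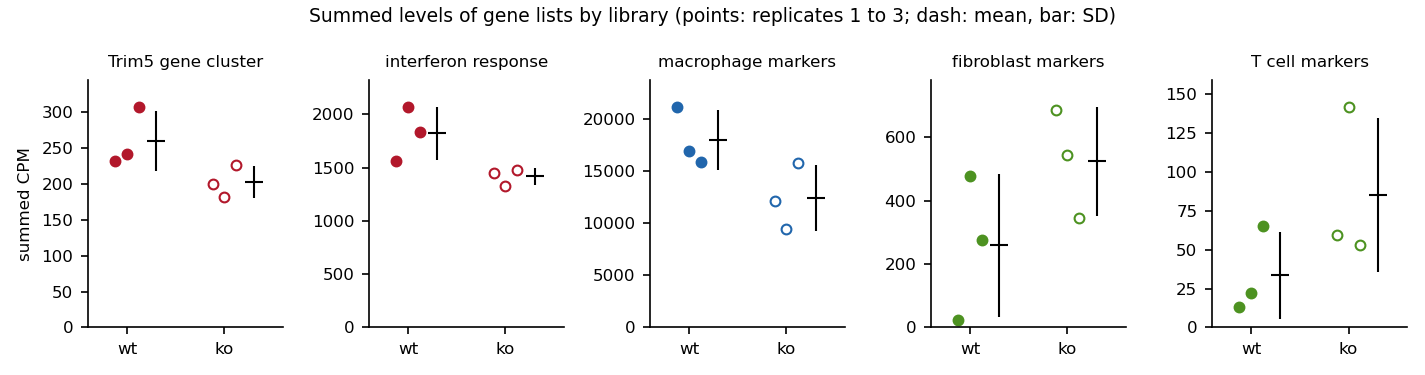
Summed TMM-scaled CPM by library for the Trim5 gene cluster, the interferon response list and 3 marker lists, each panel with its own axis from 0. Filled points are wt replicates 1 to 3, open points ko replicates 1 to 3, with mean and SD (n = 3). The first 3 sums are lower in all ko libraries than in all wt libraries, while the fibroblast and T cell sums overlap.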

How the data were processed

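RNA from the 6 samples had been sequenced as paired ends (SMARTer Ultra Low Input RNA Kit, NovaSeq) according to the methods of the study. The labels instead describe TRIzol extraction and a small RNA library, and this difference was not reconciled either. Per the file headers and values, the authors deposited unnormalized read counts per gene and, from the same counts, FPKM values per gene length and library total, 1 column for each library. The submitters' processing notes name mm10. The aligner, the counting tool, the annotation and the use of strand are not given in the sources used here, so reads of overlapping genes on opposite strands could not be told apart.

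Counts were tested with edgeR 4.0.16 in R 4.3.3 (filterByExpr, TMM, glmQLFit, glmQLFTest), 3 wt against 3 ko libraries and no covariate, with Benjamini-Hochberg adjustment over 13884 genes and a threshold of 0.05. Each SE was obtained from the log2 fold change and its F statistic. The script was tested on simulated data. Alternatives used DESeq2 1.42.0, RLE and upper quartile scaling, other filters on counts, limma 3.58.1 on log2 of FPKM plus 1 or 0.1, a replicate block, fits that left out 1 library at a time, and the 4 heatmap libraries. DESeq2 without wt replicate 1 and scaling to the macrophage list were chosen after seeing the data. No pairing or relation of the mice is stated, and each p-value sets the difference between the groups against the spread between the samples within them.

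The members, classes and lists were chosen with earlier results of these data known. Named were the tested genes of the Trim5 cluster and the TIF1 class, the 5 members with the smallest p in each direction, the 5 with the highest mean FPKM, Trim21, Trim25, Trim56 and Trim30c, and of each pathway list the 2 genes with the smallest p in each direction. Lists were TRIM proteins under other names, E2 enzymes and ubiquitin-like modifiers, RNA and DNA sensing, interferon response, KRAB repression partners, and markers of macrophages, fibroblasts, epithelium or carcinoma, T, NK, B and dendritic cells and neutrophils. Gene positions are from GENCODE vM21 (GRCm38). The promoter elements, and the 100-base windows of a member's longest transcript that recur in other genes, were found by exact match.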

Additional observations from a re-analysis of the deposited data

How the results depend on the processing

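The count of TRIM members called was 0 with edgeR under every scaling, filter and choice of libraries tried and with limma on FPKM, and 1, 2 and 1 with DESeq2 on 6 libraries, on the 4 heatmap libraries and without wt replicate 1. Tested members whose groups do not overlap numbered 10, between 9 and 11 under other scalings and filters. Leaving out 1 library gave 10 to 21, with 20 without wt replicate 2 and 21 without ko replicate 3, where 43.9% and 49.8% of all genes did not overlap against 25.9% with 6 libraries, and the 4 heatmap libraries gave 23, where 57.8% of all genes did not overlap. Fewer libraries make overlap rarer by construction. The median log2 fold change of the family lay between -0.094 and 0.12 with 1 library left out, the lowest being that without wt replicate 2, and was 0.66 when scaled to the macrophage list, where the median of all genes was 0.59.

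Of the 24 named members, these turned direction. On log2 FPKM plus 1 and plus 0.1, which move the median of all genes up by 0.07 and 0.14, Trim5 was at 0.020 and 0.047, Trim12a at 0.092 and 0.12, and Trim30d at 0.0095 and 0.015. Scaling to the macrophage list turned Trim5 (0.41), Trim8 (0.066), Trim12a (0.54), Trim12c (0.15), Trim21 (0.15), Trim25 (0.41), Trim26 (0.44), Trim30a (0.10), Trim30b (0.045), Trim30d (0.33) and Trim34a (0.32). With 1 library left out, estimates ran from -0.34 to 0.33 for Trim5, from -0.22 to 0.19 for Trim12a, from -0.32 to 0.024 for Trim25, from -0.37 to 0.066 for Trim30d, from -0.080 to 0.56 for Trim34b and from -0.19 to 0.35 for Trim66. DESeq2 without wt replicate 1 gave 0.0029 for Trim25 and -0.10 for Trim66. Trim30c was lower in all 18 alternatives, between -1.47 and -0.60. The cause of these turns was not tested.

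Deviations from the group means correlated at -0.24, 0.06 and -0.34 between the wt and ko libraries of replicate numbers 1, 2 and 3. With 3 libraries a group, these values cannot show whether libraries were paired. With the replicate block 0 members were called and the median was 0.06. Trim34b could not be fitted with at least 10 counts in every library. With 3 libraries a group, members under about 1 CPM had standard errors up to 0.77 on the log2 scale.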
